A study of Saccharomyces cerevisiae with 48 samples.

Results

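The 8 genes described here form the core of the switch that commits budding yeast to a new round of division: the G1 cyclin genes CLN1 (YMR199W), CLN2 (YPL256C) and CLN3 (YAL040C), the repressor gene WHI5 (YOR083W), the transcription factor genes SWI4 (YER111C), SWI6 (YLR182W) and MBP1 (YDL056W), and BCK2 (YER167W). They were chosen by ORF name, with earlier results of these data known. Of the 8, 3 (CLN3, SWI6 and MBP1) were among the 3301 genes with read counts per library, and the other 5 were found only in a pooled mRNA table of 6713 ORFs. Diploid cells of the laboratory strain BY4743 were grown in rich glucose medium at 30°C and fractionated by centrifugal elutriation, which separates cells by size and yields newborn G1 cells. Each fraction was left to grow and was harvested at 1 of 8 sizes, 40, 45, 50, 55, 60, 65, 70 or 75 fl. All groups shared strain and medium, the labels name no mutant or drug, and the cells were not arrested, so that by label the groups differ only in the size at harvest. Since cells grew to each size, time after elutriation and stage of the cell cycle go with size and cannot be told apart from it. Cells of 1 size from several fractions were pooled until a replicate was large enough, and 3 such pools per size (A, B and C) were each split into 1 poly(A) mRNA library and 1 library of ribosome footprints, the fragments of mRNA that ribosomes shield from nuclease. In bulk samples such as these, fewer cells expressing a gene and less RNA per cell cannot be told apart.

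Commitment to division in G1 is called Start. Cln3, the most upstream G1 cyclin, acts with the kinase Cdc28 to relieve repression by Whi5, which binds the factor SBF (Swi4 with Swi6). SBF and its relative MBF (Mbp1 with Swi6) then turn on a large set of genes, among them CLN1 and CLN2, whose cyclins feed back to speed the switch. SWI4 carries the DNA-binding part of SBF, MBP1 that of MBF, and SWI6 the subunit common to both, while BCK2 promotes the same transcription by a route that does not need CLN3. Because cells must reach a certain size before Start, these genes are central to work on how yeast senses size. By the reference annotation of assembly R64, CLN1 lies on chromosome XIII (662644 to 664284), CLN2 on XVI (64977 to 66614), CLN3 on I (65778 to 67520) and WHI5 on XV (479533 to 480420). SWI4 lies on V (382595 to 385876), SWI6 on XII (517940 to 520351), MBP1 on IV (352877 to 355378) and BCK2 on V (518216 to 520771).

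The mRNA libraries held 248840 to 5797532 counted reads and the footprint libraries 26360 to 5659096, with 6 footprint libraries under 150000. No gene in the count tables has fewer than 10 reads in any mRNA library, so a gene that was nearly silent in the smallest cells could not enter them. The pooled table gives 1 value per size and ORF, with no replicates and hence no test. Its values are the log2 of a level divided by the mean of that gene over the 8 sizes, and the levels behind them were recovered as whole multiples of 0.01 for 6337 of the 6383 ORFs with a value at all sizes. These levels differed from the reads of the 3 libraries of a size, summed and expressed as CPM (reads relative to library size) per kb, by a median of 0.0307 log2 over 3219 genes, against 0.0791 from the mean of the 3 libraries. They are therefore given below in CPM per kb, a scale on which genes can be compared, although the authors' own unit is nowhere stated in the labels or headers. At 40 fl replicate A supplied 87.4% of the summed reads, whereas the deepest library supplied 41.5% to 58.8% at the other sizes. The mating and haploid-specific genes looked up (8 genes, among them STE2, STE3, HO and RME1) had pooled values at all sizes and none was counted, which is no check of the labelled ploidy.

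CLN1 and CLN2, the cyclin genes that SBF turns on, had the widest swings of the 8. The pooled CLN1 level was 3.25, 5.58, 33.53, 81.53, 97.32, 45.13, 57.29 and 46.84 CPM per kb in order of size from 40 to 75 fl. That of CLN2 was 4.31, 2.64, 16.22, 47.69, 57.49, 19.98, 31.07 and 29.85 at the same sizes. Both were thus low at 40 and 45 fl, highest at 60 fl and intermediate in the largest cells. Exact 95% Poisson intervals, which cover counting error only, ran from 2.22 to 4.59 for CLN1 at 40 fl and from 92.5 to 102 at 60 fl. For CLN2 they ran from 2.00 to 3.42 at 45 fl and from 53.8 to 61.4 at 60 fl.

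The largest step of both genes lay between 45 and 50 fl, where the pooled level of CLN1 was 6.01 times and that of CLN2 6.14 times as high at the larger size. These 2 steps ranked 36th and 34th among the 6383 ORFs for that interval. Between 60 and 65 fl the level of CLN2 went to 0.348 and that of CLN1 to 0.464 of its previous value. Over all sizes the range was 4.90 log2 for CLN1, rank 30 of 6383 ORFs, and 4.44 log2 for CLN2, rank 59. The median range of all ORFs was 1.17 log2 and the 95th percentile 2.86. The CLN1 level was 0.754 times that of CLN2 at 40 fl and between 1.57 and 2.26 times at the 7 other sizes.

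**Figure D1:**
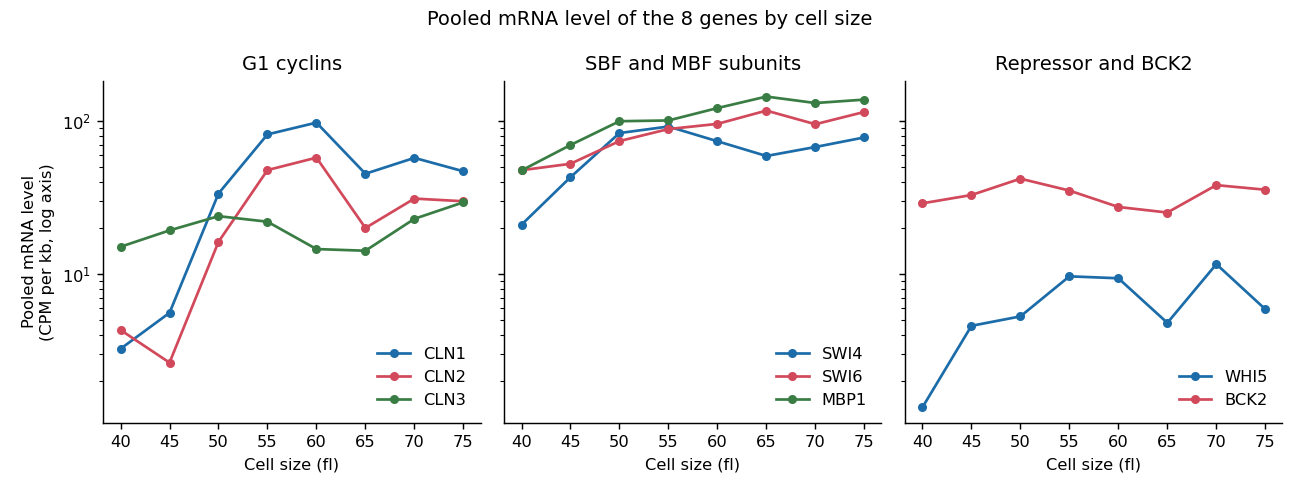
Pooled mRNA level in CPM per kb (log axis) against cell size in fl, with 1 point per size and no replicates. CLN1 and CLN2 stay at or below 5.58 at 40 and 45 fl and reach 97.32 and 57.49 at 60 fl, whereas CLN3 and BCK2 move by 2.07-fold and 1.66-fold over all sizes.

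CLN3, the cyclin gene upstream of the other two, did not share this course. In the pooled table its level was 15.06, 19.26, 23.86, 21.95, 14.55, 14.19, 22.92 and 29.38 CPM per kb from the smallest to the largest size. The level was lowest at 60 and 65 fl, the former being the size at which CLN1 and CLN2 were highest. The CLN1 level was 0.216, 6.69 and 1.59 times the CLN3 level at 40, 60 and 75 fl. The CLN2 level was 0.137 and 3.95 times that of CLN3 at 45 and 60 fl.

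In the counts per library, mRNA of CLN3 was 21.2, 47.4 and 46.99 CPM (here with scaling factors between libraries) in replicates A, B and C at 40 fl. It was 40.6, 42.9 and 23.7 CPM in those of 45 fl and 40.3, 47.2 and 37.9 CPM at 50 fl. The 55 fl replicates had 25.7, 40.7 and 58.5 CPM, those of 60 fl 23.9, 23.4 and 28.7 CPM, and those of 65 fl 27.5, 26.7 and 17.03 CPM. In cells of 70 fl the values were 44.2, 25.3 and 31.5 CPM and in cells of 75 fl 17.9, 68.1 and 32.4 CPM. The 6 libraries of 60 and 65 fl all lay below the 3 libraries of 50 fl, whereas every other pair of sizes overlapped. How often sizes separate in this way among all 3301 genes was not counted, so the separation is a description only. The CLN3 values rested on 11 to 291 reads per library. Across the 8 sizes the fitted range was 0.82 log2 and CLN3 was not called (edgeR quasi-likelihood, Benjamini-Hochberg adjusted over 3301 genes, adjusted p = 0.462). The means of 55 and 60 fl lay -0.10 log2 (SE 0.29) from those of 40 and 45 fl, with an edgeR adjusted p of 0.834. This difference was -0.24, -0.54 and 0.29 log2 in replicates A, B and C, so the letters did not share a sign, and it was above 0 without replicate B (0.11 log2).

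The 3 genes for SBF and MBF subunits were all lowest at 40 fl in the pooled table, but SWI4, whose own transcription is known to be tied to the cell cycle, peaked earlier than its partners. Its pooled level was 20.98, 42.85, 83.20, 91.77, 73.55, 58.94, 67.47 and 77.92 CPM per kb from 40 to 75 fl. The level more than doubled from 40 to 45 fl (2.04-fold) and was 1.94-fold higher again at 50 fl. SWI4 therefore stood near its peak at 50 fl, when CLN1 and CLN2 were still at 33.53 and 16.22. The range of SWI4 over the sizes was 2.13 log2, rank 796 of 6383 ORFs.

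SWI6 and MBP1, the shared subunit and the MBF subunit, had pooled levels that were nearly equal at 40 fl (47.59 and 47.43 CPM per kb) and were highest at 65 fl (116.60 and 143.97). Their ranges were 1.29 log2 (rank 2696) and 1.60 log2 (rank 1663), against the median of 1.17 for all ORFs. The ratio of SWI4 to MBP1, a comparison of the 2 DNA-binding subunits, was 0.442, 0.913 and 0.409 at 40, 55 and 65 fl. The ratio of MBP1 to SWI6 stayed between 0.997 and 1.38.

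The counts allowed a test for SWI6 and MBP1. SWI6 mRNA was 99.8, 185 and 150 CPM in replicates A, B and C of the 40 fl cells, and 118, 153 and 136 CPM in those of 45 fl. Unlike in the pooled table, the mean was lowest at 45 fl (7.08 log2 CPM, against 7.14 at 40 fl). The replicates of 50 fl gave 178, 174 and 183 CPM and those of 55 fl 271, 151 and 183 CPM. The values reached 282, 218 and 230 CPM in cells of 60 fl and 260, 323 and 260 CPM in those of 65 fl, and were 207, 238 and 222 CPM at 70 fl and 291, 251 and 267 CPM at 75 fl. All 12 libraries of 60 to 75 fl (at least 207 CPM) lay above all 9 libraries of 40 to 50 fl (at most 185 CPM), and the libraries of 55 fl overlapped with both. The sizes were grouped here by the values themselves, and how many of the 3301 genes separate in the same way was not counted. SWI6 was called across sizes (edgeR adjusted p = 0.00725), where 26% of the 3301 genes were called. Its mRNA rose by 0.15 log2 (SE 0.03) per 5 fl (edgeR adjusted p = 0.000152), as did that of 19.4% of genes.

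MBP1 mRNA was 101, 198 and 179 CPM in replicates A, B and C of the 40 fl cells, and 142, 266 and 179 CPM in those of 45 fl. The replicates of 50 fl gave 238, 237 and 283 CPM and those of 55 fl 310, 200 and 210 CPM. Cells of 60 fl had 402, 286 and 292 CPM and cells of 65 fl 356, 371 and 324 CPM. The replicates of 70 fl gave 299, 307 and 404 CPM and those of 75 fl 478, 271 and 317 CPM. All 3 libraries of 40 fl lay below every library of 50 fl and above, a separation likewise not counted over all genes. From 60 fl on, neighbouring sizes overlapped. MBP1 was called across sizes (edgeR adjusted p = 0.0211) and rose by 0.17 log2 (SE 0.03) per 5 fl (edgeR adjusted p = 0.000191). The slope of both genes was positive in each of the 3 replicate letters, at 0.20, 0.11 and 0.13 for SWI6 and 0.28, 0.08 and 0.15 for MBP1 in A, B and C.

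Between 40 and 45 fl on one side and 55 and 60 fl on the other, the sizes that bracket the rise of CLN1 and CLN2, SWI6 rose by 0.68 log2 (SE 0.17, edgeR adjusted p = 0.00489) and MBP1 by 0.69 log2 (SE 0.21, edgeR adjusted p = 0.016). In this contrast 13.5% of genes were called higher and 15.8% lower. The 6 libraries of the smaller sizes (99.8 to 185 CPM for SWI6, 101 to 266 CPM for MBP1) overlapped with the 6 of the larger ones (151 to 282 and 200 to 402 CPM). Within letters the difference was 1.35, 0.11 and 0.52 log2 for SWI6 and 1.55, 0.06 and 0.47 log2 for MBP1 in A, B and C. Without replicate A neither gene was called in this contrast (0.32 log2, edgeR adjusted p = 0.209 for SWI6 and 0.25 log2, 0.394 for MBP1), and without replicate C the adjusted p was 0.0742 and 0.0994. Across sizes SWI6 was not called without replicate B or C (edgeR adjusted p = 0.0643 and 0.267), nor MBP1 without any 1 letter (0.07 to 0.309) or without the library of replicate A at 40 fl (0.0536), whereas its slope and that of SWI6 were called with each of the 24 libraries, and each letter, left out in turn.

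**Figure D2:**
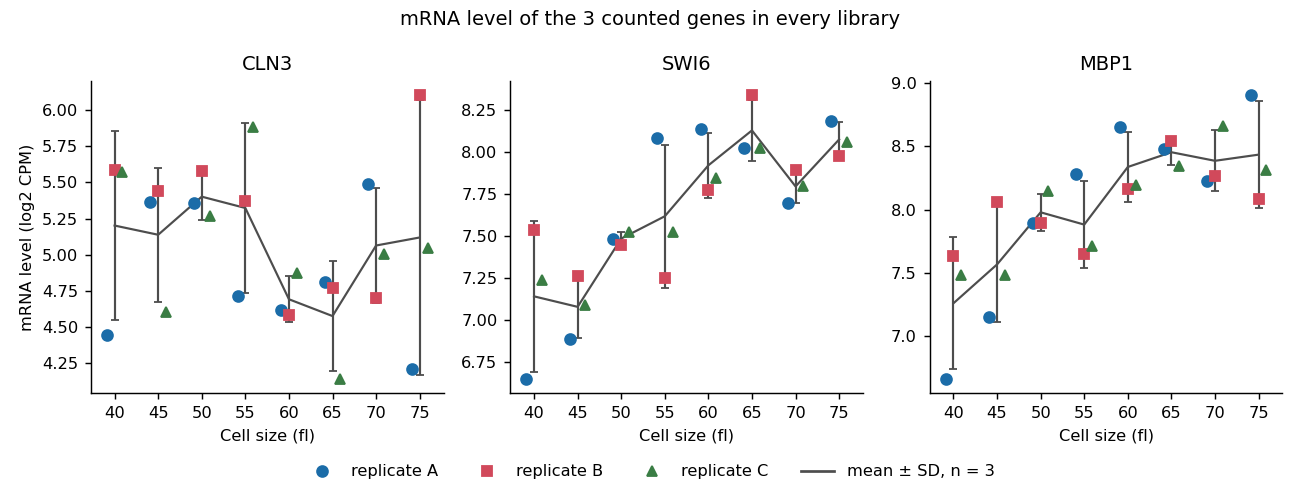
mRNA level (log2 CPM) of CLN3, SWI6 and MBP1 against cell size in fl, with a marker per library by replicate letter and a line for the mean ± SD of n = 3; each panel has its own vertical scale. SWI6 and MBP1 are higher at 60 to 75 fl than at 40 fl in all letters, replicate A has the lowest values at 40 fl in all 3 panels, and CLN3 shows no such course.

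The lowest of the 3 libraries at 40 fl was replicate A for all 3 counted genes, at 21.2 CPM for CLN3, 99.8 CPM for SWI6 and 101 CPM for MBP1, against at least 46.99, 150 and 179 CPM in replicates B and C. Since that library supplied most reads of the pooled 40 fl value, the pooled levels of CLN1, CLN2, WHI5, SWI4 and BCK2 at 40 fl come mainly from it. For these 5 genes the level in the other libraries at 40 fl cannot be seen in the pooled table, so its part in their low values there was not tested. The steps from 45 fl upward do not use that library.

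WHI5, the repressor of SBF, had the lowest pooled level of the 8 at every size from 50 fl on and at 40 fl. Its level was 1.35, 4.59, 5.29, 9.66, 9.38, 4.80, 11.60 and 5.89 CPM per kb in the same order. These values correspond to about 7 reads at 40 fl and at most 101 at any size, and the exact 95% Poisson interval was 0.543 to 2.78 at 40 fl and 3.45 to 5.99 at 45 fl. The 3.40-fold step from 40 to 45 fl ranked 29th among all ORFs for that interval, and the range of 3.10 log2 ranked 242nd. From 45 fl on the level had no single course: it was high at 55, 60 and 70 fl and lower at 65 and 75 fl.

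The ratio of WHI5 to CLN3 mRNA sets the repressor beside the cyclin that acts on it. It was 0.0896, 0.238, 0.222, 0.440, 0.645, 0.338, 0.506 and 0.200 at the 8 sizes in turn. WHI5 mRNA was thus below CLN3 mRNA at all 8 sizes and closest to it at 60 fl. These are mRNA levels without replicates and carry no information on protein amounts.

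BCK2, the CLN3-independent activator, had the narrowest range. Its pooled level was 28.94, 32.78, 41.91, 35.04, 27.39, 25.20, 38.04 and 35.50 CPM per kb from 40 to 75 fl. The range was 0.73 log2, rank 5314 of 6383 ORFs. BCK2 was above CLN3 at every size, by 1.21 to 1.92 times, and both were lowest at 65 fl.

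Set side by side, the means of 55 and 60 fl minus those of 40 and 45 fl in the pooled table were 4.39 log2 for CLN1, 3.96 for CLN2, 1.94 for WHI5, 1.45 for SWI4, 0.94 for MBP1, 0.88 for SWI6, 0.07 for CLN3 and 0.01 for BCK2. The median of all ORFs was 0.06, and 90% of them lay between -0.99 and 1.40. CLN1, CLN2, WHI5 and SWI4 were therefore above that span, SWI4 only just, and the 4 others inside it. The 8 genes were chosen with earlier results of these data known, and so were 55 and 60 fl, where G1/S transcripts were highest. A high value for G1/S genes such as CLN1 and CLN2 was thus built in, and the span is no neutral measure for them. All these differences use the 40 fl values, which come mainly from replicate A and for WHI5 from about 7 reads. Over the 8 sizes, which share libraries between genes, the Pearson correlation of pooled values was 0.964 for CLN1 with CLN2, 0.965 for SWI6 with MBP1 and 0.870 for CLN3 with BCK2. CLN3 and CLN1 had a correlation of 0.234.

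The ORFs most like each gene by the same measure were named by rule, as the 3 with the highest correlation over the 8 sizes. For CLN1 they were SMC6 (0.997), CTF18 (0.996) and MCD1 (0.995), which encode proteins of sister chromatid cohesion and of the related Smc5-Smc6 complex. For CLN2 they were SVS1 (0.997), CSI2 (0.993) and AXL2 (0.988), a bud-site gene. For SWI4 they were TPM1 (tropomyosin, 0.978), PEX30 (0.976) and YHL050C (0.974), and for WHI5 YBR027C (0.989), RSO55 (0.969) and YJL127W-A (0.959). MBP1 was closest to RPL6A (0.993), QDR3 (0.988) and RPL34A (0.988), of which RPL6A and RPL34A encode proteins of the large ribosomal subunit. SWI6 was closest to YDL221W (0.990), EKI1 (0.989) and FLO8 (0.988), CLN3 to MSL5 (0.985), SAN1 (0.959) and SED1 (0.957), and BCK2 to RTG1 (0.941), CLG1 (0.914) and PIH1 (0.909). With 8 points per correlation these values describe likeness only.

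Most genes known to be driven by SBF or MBF were, like CLN1 and CLN2, highest at 55 or 60 fl in the pooled table. The 17 other genes of the SBF target list had a median pooled value of -1.73 log2 at 45 fl and 0.41 at 55 fl, and 12 of the 17 had their highest value at 55 or 60 fl. The 29 genes of the MBF target list had a median of -1.22 at 40 fl and 0.66 at 55 fl, and 26 of the 29 were highest at 55 or 60 fl, against 11.8% of all ORFs. Among those not counted per library, PCL1, an SBF-driven cyclin gene for the kinase Pho85, stood at -5.03 log2 in cells of 40 fl and at 1.00 in those of 55 fl. TOS4, an MBF target, stood at -4.17 in cells of 40 fl and at 1.10 in those of 60 fl. The wall protein genes TOS6 and SVS1 were highest at 55 fl (1.09 and 1.02), and the cohesin gene MCD1 and the thymidylate synthase gene CDC21 at 60 fl (1.04 and 0.90). These 6 have wide ranges and do not stand for the lists. Chosen after their values were seen, HO, the mating-type switching endonuclease gene, and PRI1, a primase subunit gene, ran the other way: the mean of 55 and 60 fl minus that of 40 and 45 fl was -0.69 log2 for HO, lowest at 60 fl, and -0.73 for PRI1, highest at 40 fl. That difference was only 0.15 log2 for MNN1, 0.17 for KRE6, 0.23 for RFA1 and 0.25 for POL3. HO is among the mating and haploid-specific genes named above, and these cells are labelled diploid. Whether this bears on the course of HO was not tested.

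Of the MBF targets, 10 were counted per library, of which 9 were called across sizes and 9 higher at 55 and 60 fl than at 40 and 45 fl, with a median difference of 1.76 log2 against -0.02 for all genes. Of all 3301 genes 26% were called across sizes and 13.5% higher in the contrast. For the slope 1 of the 10 was called, upward. The contrast of 3 of them was 1.86 log2 (SE 0.23, edgeR adjusted p = 7.45e-06) for the cohesin gene IRR1, 2.06 log2 (SE 0.27, edgeR adjusted p = 1.58e-05) for the primase subunit gene PRI2 and 1.77 log2 (SE 0.26, edgeR adjusted p = 4.2e-05) for the flap nuclease gene RAD27. Of the SBF targets, 5 others were counted, of which 2 were called across sizes and 3 were called higher in the contrast, with a median difference of 0.63 log2, and 1 was called for the slope, upward. They included the septin gene CDC10 at 1.22 log2 (SE 0.17, edgeR adjusted p = 2.75e-05) and the wall enzyme gene GAS1 at 0.95 log2 (SE 0.27, edgeR adjusted p = 0.0111). No counted gene of either list was called lower in the contrast; HO and PRI1 were not counted. The later sizes of the contrast were those at which G1/S transcripts were known, from earlier results of these data, to be highest. A rise of these lists in the contrast was therefore built in, and the share of all genes is no neutral measure for it. No p is given for the lists, since they too were chosen with results of these data known.

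**Figure D3:**
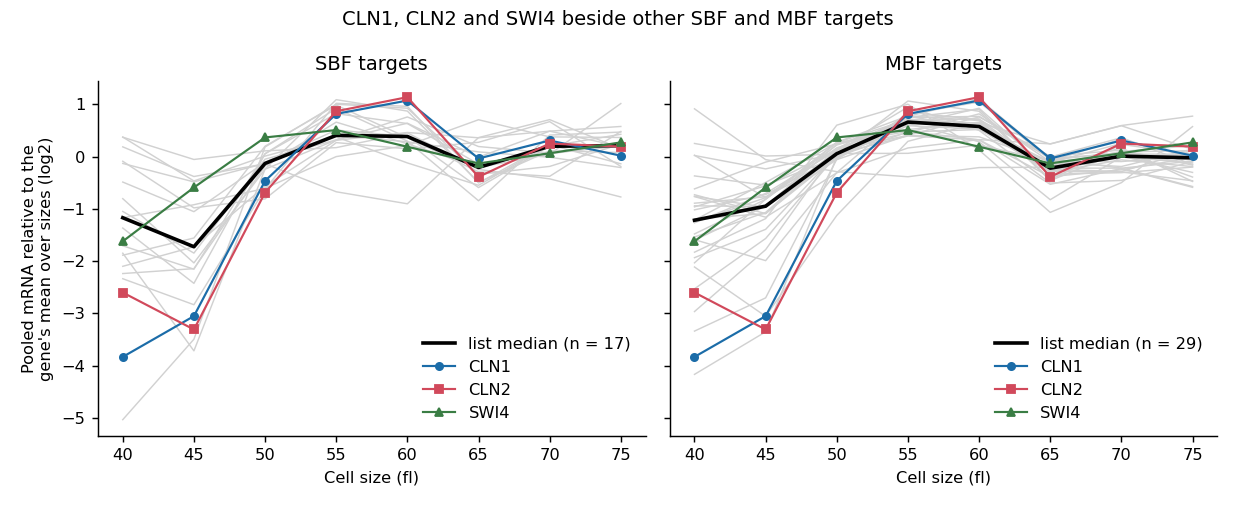
Pooled mRNA (log2, each gene's mean over the 8 sizes set to 0), against cell size in fl, for CLN1, CLN2 and SWI4 (coloured, the same in both panels), the other genes of the SBF or MBF target list (grey lines) and the list median (black). The medians are highest at 55 fl (0.41 and 0.66), and SWI4 lies above both medians at 45 and 50 fl.

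The other gene lists around the switch were read against the same shares of all genes, 26% called across sizes and 13.5% higher in the contrast, and for the slope 19.4% up and 22.1% down. Among 5 counted co-regulators of SBF and MBF, 0 were called across sizes by edgeR (1 fell below 0.05 before adjustment, and 1 was called by DESeq2) and 1, POB3, a subunit of the FACT histone chaperone, was called higher at 55 and 60 fl (0.62 log2, SE 0.16, edgeR adjusted p = 0.00819), while 1 was called for the slope, upward. Of those not counted, the repressor genes NRM1 and YHP1 were lowest at 45 fl (-3.06 and -3.23 log2), NRM1 being highest at 75 fl (0.77) and YHP1 at 60 fl (0.74). The list of partners and inhibitors of the Cdc28 kinase had 11 counted genes. They included chaperone genes, such as SSA1 and SSA2, and genes of ubiquitin-mediated protein breakdown, such as CDC4 and SKP1. Of the 11, 2 were called across sizes, a share below that of all genes, and 4 higher in the contrast. These 4 were SIC1, CAK1, SSA1 (1.45 log2, SE 0.36, edgeR adjusted p = 0.00531) and SSA2 (1.51 log2, SE 0.36, edgeR adjusted p = 0.00383). For the slope 4 of the 11 were called upward and 1 downward. SIC1, the inhibitor of Cdc28 with B-type cyclins, was 1.21 log2 higher at 55 and 60 fl (SE 0.20, edgeR adjusted p = 0.000149) and highest at 75 fl (9.74 ± 0.26 log2 CPM, SD, n = 3). CAK1, the kinase that activates Cdc28, was 0.87 log2 higher (SE 0.19, edgeR adjusted p = 0.0018). CDC28 itself, not counted, had a pooled range of 1.04 log2, and FAR1, the inhibitor of the G1 cyclins, was highest at 65 fl (1.05 log2).

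Of 10 counted regulators of CLN3 and cell size, 0 were called across sizes or in the contrast by edgeR, with a median difference of -0.11 log2. In each test 1 gene fell below 0.05 before adjustment, and DESeq2 called 2 across sizes and 1 in the contrast. For the slope edgeR called 1 upward and 1 downward. The smallest p across sizes in this list was that of TPK3, a catalytic subunit of protein kinase A (edgeR adjusted p = 0.0833). Among those not counted, SWI5, an activator of early G1 genes, was lowest at 45 fl (-3.12 log2) and highest at 75 fl (0.92). WHI3, whose protein binds CLN3 mRNA in yeast, had its extremes at the same sizes (-0.93 and 0.73). In the list for Pho85 and its cyclins, PHO85 itself and the cyclin genes PCL1, PCL2 and PCL9 were not counted. The 5 counted genes were those of other Pho85 cyclins (PCL5, PCL6, PCL7, PCL10 and CLG1). Of these 5, PCL6 was the 1 called across sizes (edgeR adjusted p = 0.000623) and in the contrast (0.71 log2, SE 0.19, edgeR adjusted p = 0.00742). This share was near that of all genes, and 2 of the 5 were called upward for the slope.

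Ratios within a library compare the counted genes without any scaling between libraries. The log2 ratio of MBP1 to SWI6 reads ranged from 0.12 at 40 fl to 0.59 at 70 fl and did not pass the test (permutation test of the F statistic over sizes, 100000 resamples, p = 0.168, adjusted over 3 ratios 0.168). That of CLN3 to SWI6 was -1.94 at 40 fl and -3.58 at 65 fl (permutation p = 0.0259, adjusted 0.0608), and that of CLN3 to MBP1 was -2.06 and -3.90 (permutation p = 0.0406, adjusted 0.0608). At 55 and 60 fl CLN3 stood 0.83 log2 lower relative to SWI6 than at 40 and 45 fl (exact two-sided permutation test, 6 against 6 libraries, p = 0.0498, adjusted 0.0844) and 0.87 log2 lower relative to MBP1 (exact p = 0.0563, adjusted 0.0844). None of the 3 ratios passed after adjustment. Without replicate A both CLN3 ratios passed across sizes (adjusted permutation p = 0.0164). Without replicate B or C neither did (adjusted permutation p = 0.163 and 0.55).

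Ribosome footprints of the 3 counted genes were few, and no change with size was called. CLN3 had 67, 31 and 129 footprint reads in replicates A, B and C of the 40 fl cells, and 61, 103 and 257 in those of 45 fl. The replicates of 50 fl held 39, 5 and 28 such reads and those of 55 fl 10, 134 and 204. In cells of 60 fl there were 7, 107 and 1, in cells of 65 fl 106, 2 and 0, in cells of 70 fl 7, 53 and 0, and in cells of 75 fl 51, 78 and 48. Scaled to CPM, the 40 fl replicates had 63.0, 27.5 and 28.2, the 45 fl replicates 54.1, 62.6 and 89.2, the 55 fl replicates 15.6, 62.0 and 33.1 and the 75 fl replicates 40.6, 54.9 and 21.9. The highest value, 433 CPM, came from 28 reads in replicate C at 50 fl, a library of 54111 reads in which neither SWI6 nor MBP1 had a read. On the same scale a count of 0 in that library allows up to 46.4 CPM (3 reads), and in replicate C at 65 fl, of 26360 reads, up to 127.

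SWI6 had 0 to 239 footprint reads per library and MBP1 0 to 195. In the libraries with at least 150000 reads SWI6 lay between 21.3 and 65.2 CPM and MBP1 between 14.6 and 72.3 CPM. For SWI6 the 3 libraries at 40 fl gave 31.99, 21.3 and 22.5 CPM and those at 75 fl 27.1, 48.6 and 65.2 CPM. For MBP1 they gave 37.6, 25.7 and 29.3 CPM at 40 fl and 34.2, 34.5 and 14.6 CPM at 75 fl. The 2 sets of libraries overlapped for both genes.

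Across sizes 0 of the 3 genes were called for footprints, against 0.515% of the 3301 genes (17 genes). DESeq2 called 0 of the 3 as well, giving no p for SWI6. The edgeR adjusted p was 0.9999 for each of the 3 genes. Between 55 and 60 fl and 40 and 45 fl the footprint difference was -0.32 log2 (SE 0.51, edgeR adjusted p = 0.88) for CLN3, 0.12 log2 (SE 0.41, edgeR adjusted p = 0.945) for MBP1 and 0.01 log2 (SE 0.42, edgeR adjusted p = 0.996) for SWI6. In this contrast 0% of genes were called by edgeR, 273 fell below 0.05 before adjustment, and DESeq2 called 17. The mRNA changes of SWI6 and MBP1 in this contrast were under 2 of these SEs. Without the 6 shallow libraries the footprint difference was 0.10 log2 (SE 0.30, edgeR adjusted p = 0.877) for SWI6 and 0.23 log2 (SE 0.30, edgeR adjusted p = 0.702) for MBP1. Without replicate A, which leaves 2 libraries per size, CLN3 footprints were called across sizes (edgeR adjusted p = 0.023), within 515 calls among the 3301 genes. At 50 fl that fit rests on libraries of 40140 and 54111 reads, with 5 and 28 reads of CLN3. The fitted range of CLN3 footprints over sizes was 2.25 log2 with all libraries and 1.15 log2 without the 6 shallow ones.

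**Figure D4:**
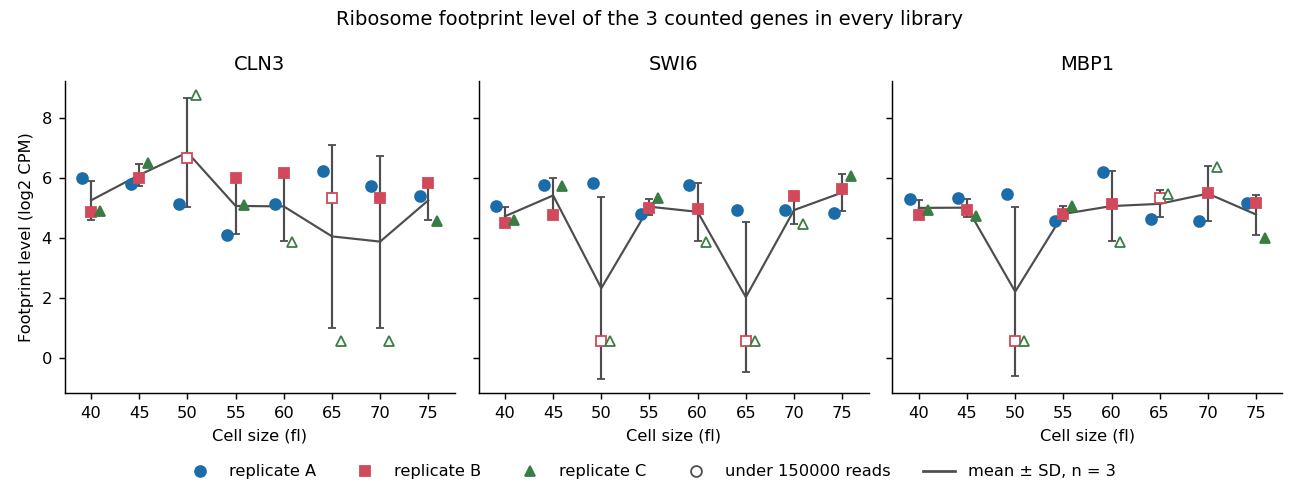
Footprint level (log2 CPM) of CLN3, SWI6 and MBP1 against cell size in fl, with a marker per library, open where the library has under 150000 reads, and a line for the mean ± SD of n = 3. Open markers at 0.57 are libraries with 0 reads of the gene, and the filled markers of the 3 genes show no course with size.

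Translational efficiency, the log2 footprint level minus the log2 mRNA level of the same pool, was higher for CLN3 than for the 2 transcription factor genes. In the 18 pools with at least 150000 footprint reads its median was 0.48 log2 for CLN3 (lowest -0.77, highest 1.90), -2.44 for SWI6 (-3.35 to -1.14) and -2.86 for MBP1 (-4.30 to -1.37). Among all 3301 genes of a pool CLN3 had a median percentile of 79.1 and was above the median gene in 18 of 18 pools. SWI6 had a median percentile of 22.1 and was above the median gene in 1 of 18 pools, and MBP1 had 15.7 and was above it in 0.

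CLN3 was above SWI6 in 18 of 18 pools, by 2.76 ± 1.02 log2 (SD, n = 18 pools). It was above MBP1 in 18 of 18 pools by 3.32 ± 1.07 log2. SWI6 was above MBP1 in 15 of 18 pools by 0.56 ± 0.59 log2. These differences are given as a description, with no test, and the pools come from 8 sizes. A gene's length enters both of its levels and so drops out of the difference. Over all 24 pools CLN3 was above the median gene in 22, and the 2 exceptions were the libraries without a CLN3 footprint read.

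**Figure D5:**
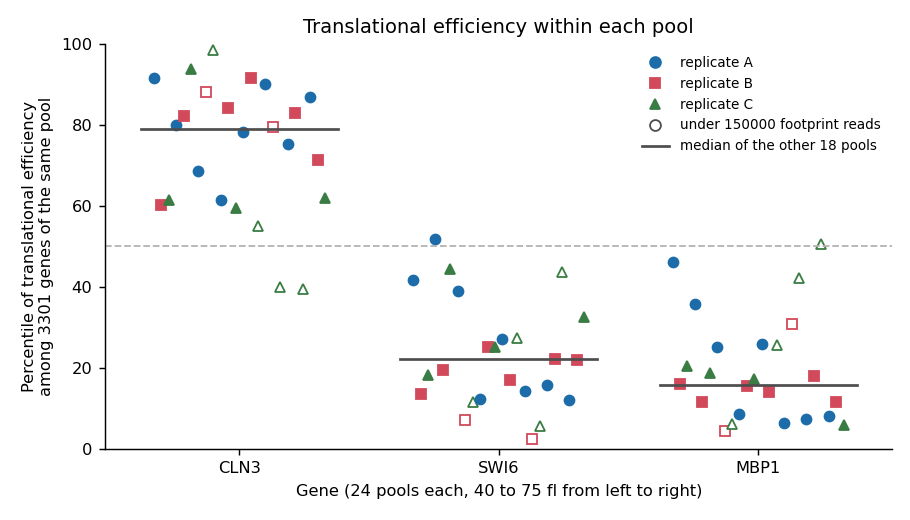
Percentile of translational efficiency among the 3301 genes of the same pool (vertical axis) for CLN3, SWI6 and MBP1, with a marker per pool in order of size, open where the footprint library has under 150000 reads, and a line at the median of the other 18 pools. The medians are 79.1, 22.1 and 15.7, and the dashed line marks the median gene.

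Translational efficiency did not pass the test with size for any of the 3 genes. Across sizes 0.333% of genes were called (11 genes) and 0 of the 3. With a term for each pool, which pairs its footprint and mRNA libraries, 0 genes were called across sizes by edgeR and 94 fell below 0.05 before adjustment. The difference of 55 and 60 fl from 40 and 45 fl was -0.12 log2 (SE 0.56, edgeR adjusted p = 0.973) for CLN3, -0.55 log2 (SE 0.42, edgeR adjusted p = 0.783) for MBP1 and -0.66 log2 (SE 0.41, edgeR adjusted p = 0.744) for SWI6. In that contrast 0% of the genes were called by edgeR, 259 fell below 0.05 before adjustment, and DESeq2 called 14. The values of SWI6 and MBP1 were about as large as their mRNA differences with the opposite sign, and were not called. This follows from the definition, the footprint difference minus the mRNA difference, with footprint differences of only 0.01 log2 for SWI6 and 0.12 log2 for MBP1.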

How the data were processed

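Poly(A) mRNA and ribosome footprints were measured in 24 libraries per assay, 3 pools (A, B and C) at each of 8 sizes, the groups being assay by size as labelled. Per the submitters' processing notes, reads were handled with TopHat2 (version 2.1.0), Bowtie (1.1.2), RSEM (1.2.20) and cutadapt (1.8), among others, on build R64; the tool behind each table is not stated. The authors deposited whole-number read counts for 3301 genes, not normalized, each gene having 10 or more mRNA reads per library. Which count table holds which assay was decided by comparison with a log2 table of 3291 genes, also deposited, with blocks headed mRNA and footprint: all 24 columns of the first table were closest to the mRNA column of the same name and 21 of 24 of the second to the footprint column. Their deposited pooled table gives, on a log2 scale, the mRNA level of an ORF at each size over its mean.

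The main test was the quasi-likelihood F-test of edgeR 4.0.16 under R 4.3.3, with TMM factors computed per assay, each fit on the 24 libraries of an assay or, for translational efficiency, on all 48 as the interaction of assay and size. A footprint and an mRNA library made from 1 pool are paired by design (their deviations correlated by 0.114 on average, above 0.1 in 13 of 24 pools), and a term per pool was the blocked alternative. A gene was called where its p, adjusted by Benjamini-Hochberg over 3301 genes, was under 0.05. Log2 CPM used a prior count of 2, and ratios within a library a pseudocount of 0.5 reads. Single values were compared by permutation with SciPy 1.17.1. The alternatives were median-of-ratios factors, DESeq2 1.42.0, no filter (all 3301 genes passed it), a block for the replicate letter, leaving out a letter, a library or the 6 shallow footprint libraries, and other prior counts. Named beside the 8 genes were, per gene list, up to 3 counted genes with the smallest p across sizes and up to 3 others with the widest pooled range, not all of which are printed. The 8 genes, the gene lists and the sizes of the contrast were chosen with earlier results of these data known. The labels call the pools independent, and p-values cover the spread between them. Intervals and limits from counts cover counting error only. Plots were drawn with matplotlib 3.10.9.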

Additional observations from a re-analysis of the deposited data

How the results depend on the processing

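SWI6 and MBP1 remained called for mRNA slope under every alternative tried, and across sizes and in the contrast of 55 and 60 fl with 40 and 45 fl under median-of-ratios factors, DESeq2 and the replicate block. All 3301 genes passed the filter on low counts, so a fit without it was the same fit. The letters were not found to pair the pools: deviations of mRNA libraries with the same letter at different sizes correlated by 0.054 on average, above 0.1 in 39 of 84 pairs. With the replicate block the mRNA calls were 912 across sizes, 1010 in the contrast and 1370 for the slope, against 859, 969 and 1373 without it. The replicate block gave 10 genes for footprints across sizes (17 without it), 1 in the footprint contrast (0) and, with the pool as the block, 0 for translational efficiency across sizes (11); it changed no call of the 3 counted genes. Of the 3 counted genes of the switch, 0 to 2 were called for mRNA across sizes and in the contrast, and 0 to 1 for footprints across sizes, with a letter or a single mRNA library left out. The libraries whose loss cost the MBP1 calls were replicate A at 40 fl and, for the contrast, replicate A at 55 fl. The cause was not tested. Single libraries and ratio settings were chosen after seeing the data.

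DESeq2 called 1394 genes for mRNA across sizes, 52 for footprints across sizes, 17 in the footprint contrast, 36 for translational efficiency across sizes and 14 in its contrast. Without the 6 shallow footprint libraries there were 0 calls for footprints across sizes, 5 for translational efficiency across sizes and 2 in its contrast. With a letter or library left out, the genes called ranged from 111 to 972 for mRNA across sizes, 278 to 1033 in the contrast and 888 to 1436 for the slope. With a letter left out they ranged from 0 to 515 for footprints across sizes, 0 to 277 in the footprint contrast, 0 to 30 for translational efficiency across sizes and 0 to 8 in its contrast. A fit without a letter has 2 libraries per size.

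Without a letter, the adjusted p across sizes ranged from 0.0164 to 0.55 for the ratios of CLN3 to SWI6 and to MBP1, and the contrast of the MBP1 to SWI6 ratio from -0.0531 to 0.0783 log2. Values that changed sign were not called in any setting. With a letter or library left out, the CLN3 mRNA contrast ranged from -0.32 to 0.11 log2 (0.067 without replicate C at 40 fl and 0.045 without replicate A at 55 fl) and its slope from -0.0739 to 0.0093. The footprint contrast ranged from -1.21 to 0.0033 for CLN3, -0.0557 to 0.0986 for MBP1 and -0.15 to 0.0364 for SWI6, which was -0.0721 with median-of-ratios factors. The CLN3 contrast in translational efficiency ranged from -1.23 to 0.18. The size of the highest CLN3 mRNA level, 50 fl in the counts, was 55 fl without replicate A and 75 fl in the pooled table.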
